A study of Homo sapiens with 2 samples.

Results

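The 10 genes described here encode chemokines that epithelial cells can make: CXCL1, CXCL2, CXCL3, CXCL5, CXCL8 (formerly IL8), CCL20 and CCL2, grouped as NF-kB type, and CXCL10, CXCL11 and CCL5, grouped as interferon type. They were chosen by gene, as every non-control probe whose RefSeq accession belongs to one of them, which gave 10 of 19740 named genes with a probe, and 13 of 42405 probes. Every one of the 13 stood well above background in each of the 4 channels, and none was saturated. Of these, 12 probes of 9 genes were measured without an outlier spot, among 13812 measured genes in all. The remaining probe, that of CCL2, is described apart.

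The RNA came from RWPE-1, a noncancerous human prostate epithelial line that was immortalised with human papillomavirus and is a single line, not a panel of donors. Cells received either pre-miR-424, a precursor made to deliver the microRNA miR-424, or the precursor named Negative control #1, at 30 nM, so that both groups share the line, the medium and a transfection. Both RNAs were hybridised together on 2 Agilent 2-colour arrays, where the first (normal labelling) carried pre-miR-424 in Cy5 and the second (dye swap) carried it in Cy3. The labels call these arrays technical, so they amount to 1 replicate and allow no p-value. The SD given with each mean is the spread between the arrays, which covers labelling and hybridisation but not the spread between cultures, and the number of arrays limits the precision.

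Chemokines are small secreted proteins that guide leukocytes along a gradient by binding G protein-coupled receptors. In epithelium, the neutrophil attractants of the CXCL1 to CXCL8 group and the CCR6 ligand CCL20 are classical targets of NF-kB, which is released by signals such as interleukin-1, tumour necrosis factor and bacterial products. CXCL10 and CXCL11, ligands of CXCR3 on activated T cells, are induced by interferons through STAT and IRF factors, often together with NF-kB, and CCL5, which attracts T cells, is also induced through IRF factors.

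The microRNA itself is shown first, since its seed, bases 2 to 8 in capitals, is the stretch that mostly sets which transcripts a microRNA pairs with. The labels name the precursor and not the arm, so both mature arms from RefSeq are given (GRCh38.p14, minus strand of chromosome X).
hsa-miR-424-5p (chrX:134546680-134546701): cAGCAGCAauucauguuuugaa
hsa-miR-424-3p (chrX:134546644-134546664): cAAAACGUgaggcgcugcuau
The 5p seed is shared by 7 mature human microRNAs in the same source, namely miR-15a-5p, miR-15b-5p, miR-16-5p, miR-195-5p, miR-424-5p, miR-497-5p and miR-6838-5p. Sites for this seed in the chemokine transcripts were not searched here.

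Across the array, 63.0% to 66.7% of probes were well above background in a given channel. The log2 ratios of the 13812 genes correlated weakly between the arrays (Pearson's r = 0.207 across genes, which are not independent replicates), and 6422 genes had opposite signs on them. All 12 genes of an epithelial marker list were well above background in every channel. They included the basal genes KRT5, KRT14 and TP63, but also KRT8 and KRT18, keratins typical of luminal cells, and the general epithelial genes CDH1 and EPCAM. The secretory luminal marker KLK3 was not above background in any channel. Leukocyte markers bear on chemokines, because leukocytes make them too. Of the 7 leukocyte markers with a probe, 5 were well above background in every channel, though the RNA came from an epithelial line. PTPRC, ITGAM and CSF1R were dim, CSF1R with Cy3 signals of 84.5 and 83.35 over backgrounds of 28.2 and 27.1. CD68 and CD14 were brighter, with Cy3 signals of 1605 and 1073 for CD68 and 748.25 and 683.25 for CD14. Whether the cells express these markers was not tested, and standing well above background is not by itself evidence that they express a gene. Of the leukocyte markers 4 were measured, and 2 of these were higher and 2 lower on both arrays, with a median log2 ratio of 0.03. In RNA of a whole culture, fewer cells that make a transcript and less transcript per cell cannot be told apart.

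On both arrays CXCL10, CXCL11 and CCL5 were higher in cells given pre-miR-424, by 1.96-fold, 1.87-fold and 1.30-fold on average. CXCL3, CCL20 and CXCL1 were lower on both arrays, by 1.47-fold, 1.42-fold and 1.26-fold. CXCL2 and CXCL5 had log2 ratios between −0.06 and 0.08 on both arrays by their brightest probes, and the ratio of CXCL8 followed the dye. No member passed 2-fold on both arrays, a threshold passed by 0.0724% of measured genes upwards and 0.029% downwards. At 1.5-fold, CXCL10 and CXCL11 passed upwards and no member passed downwards, where 0.623% and 0.391% of measured genes did so. Counting any size, 3 of 3 genes of interferon type were higher on both arrays against 26.8% of measured genes, and 3 of 6 genes of NF-kB type were lower on both against 26.7%.

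**Figure D1:**
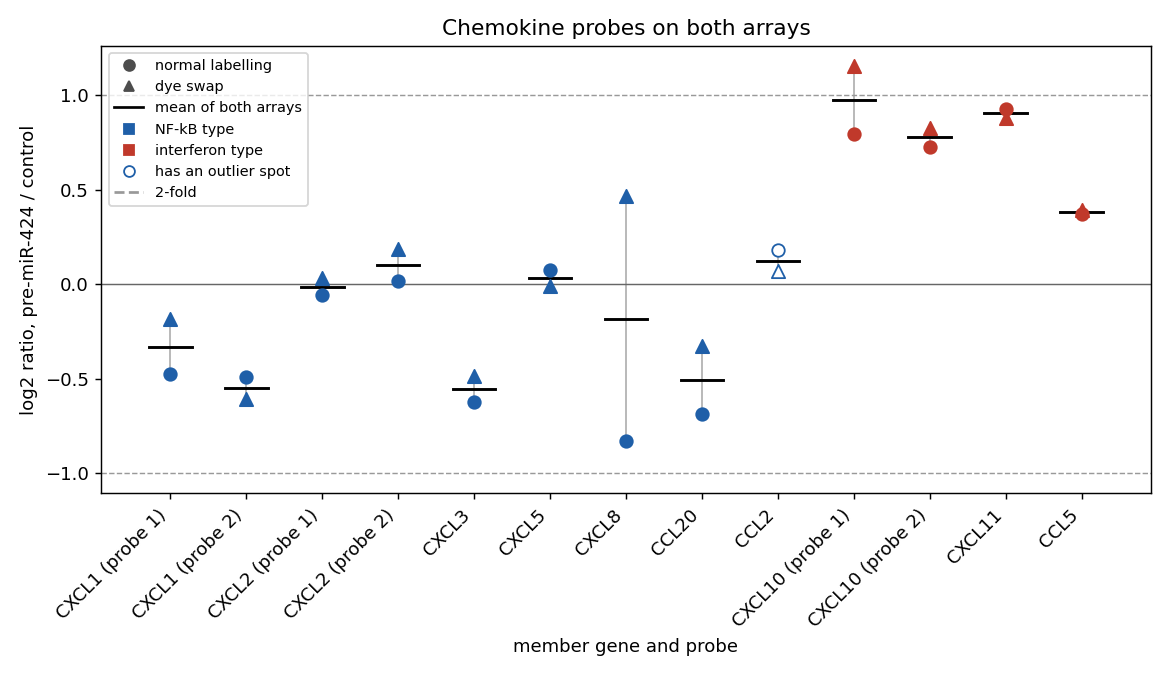
Log2 ratio of pre-miR-424 over control (vertical axis) for each of the 13 chemokine probes (horizontal axis), on the array with normal labelling (circles) and on the dye swap (triangles), with the mean as a black bar. Open symbols mark the CCL2 probe, which held outlier spots, and dashed lines mark 2-fold. All 4 interferon-type probes lie above 0 on both arrays, and CXCL8 lies at −0.83 and 0.46.

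CXCL10, formerly named for its induction by interferon gamma, gave the largest mean of the 9 genes by its brightest probe, although with the mean over its probes (0.88) it lay just below CXCL11. Its brightest probe (A_33_P3343175, NM_001565) had log2 ratios of 0.79 with normal labelling and 1.15 with the dye swap (mean 0.97, SD 0.26). In log2 normalized intensity, scaled between the arrays, this was 9.57 with pre-miR-424 and 8.78 with control on the normal array, and 9.70 and 8.55 with the dye swap. The level with pre-miR-424 was thus above that with control on each array. A second probe, A_24_P303091, had log2 ratios of 0.72 and 0.83 (mean 0.78, SD 0.07). Both CXCL10 probes were therefore above 1.5-fold on both arrays, and only the brightest passed 2-fold, with the dye swap alone. By mean log2 ratio CXCL10 ranked 21 of 13812 genes from the top.

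CXCL11, the CXCR3 ligand of highest affinity, had log2 ratios of 0.93 and 0.88 (mean 0.90, SD 0.03, NM_005409) and ranked 30. Its levels were 10.22 with pre-miR-424 and 9.30 with control on the normal array, and 10.30 and 9.42 with the dye swap. The arrays differed little for CXCL11, and its mean and that of CXCL10 lay closer together than the arrays did for CXCL10. CCL5, also called RANTES, attracts T cells and monocytes. It had log2 ratios of 0.37 and 0.39 (mean 0.38, SD 0.01, NM_002985) and ranked 379. Its levels were 9.70 against 9.32 with normal labelling and 9.70 against 9.31 with the dye swap, so that CCL5 had the smallest spread between the arrays of the 9 genes and stayed below 1.5-fold.

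How far a single gene strays between the arrays was described by its neighbours in brightness. For the 500 genes nearest in mean brightness to each member, the SD of the difference between the arrays, divided by 2, was 0.13 to 0.15. The mean log2 ratio was 6.33 times this spread for CXCL10, 6.05 times for CXCL11 and 2.49 times for CCL5. On the lower side it was 4.20 times for CXCL3, 3.97 times for CCL20 and 2.39 times for CXCL1. For CXCL8 it was 1.28 times, and for CXCL5 and CXCL2 it was 0.219 and 0.0948 times.

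**Figure D2:**
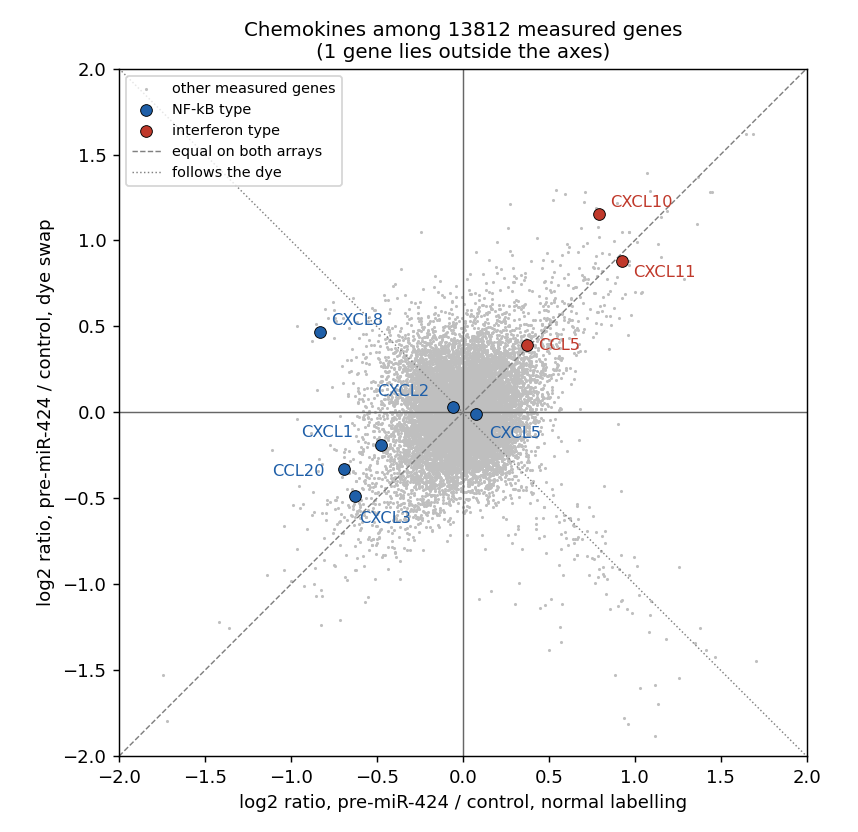
Log2 ratio of pre-miR-424 over control on the normal array (horizontal axis) and on the dye swap (vertical axis) for 13812 measured genes (grey) and the 9 measured chemokines (blue, NF-kB type; red, interferon type). Genes that repeat lie along the dashed line and genes that follow the dye along the dotted line. CXCL10, CXCL11 and CCL5 lie at the upper right, CXCL1, CXCL3 and CCL20 at the lower left, and CXCL8 near the dotted line; 1 gene lies outside the axes.

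CXCL1, CXCL2 and CXCL3 are close paralogs, all ligands of the neutrophil receptor CXCR2, and their transcripts are alike enough that cross-hybridisation between their probes, which was not tested, makes each value uncertain. CXCL3 (NM_002090) had log2 ratios of −0.63 and −0.48 (mean −0.55, SD 0.10) and ranked 138 from the bottom. Its levels were 12.19 with pre-miR-424 and 12.82 with control on the normal array, and 12.24 and 12.73 with the dye swap. The level with pre-miR-424 was thus below that with control on each array. The brightest CXCL1 probe (A_33_P3330264, NM_001511) had −0.48 and −0.19 (mean −0.33, SD 0.21), and the other, A_23_P7144, had −0.49 and −0.61 (mean −0.55, SD 0.08). In levels, the brightest probe had 11.88 with pre-miR-424 and 12.36 with control on the normal array, and 12.02 and 12.21 with the dye swap. All 4 ratios of CXCL1 were negative, and its probes were closer on the normal array than with the dye swap.

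CXCL2 lay closer to 0 than CXCL1 and CXCL3 did. Its brightest probe (A_24_P257416, NM_002089) had log2 ratios of −0.06 and 0.03 (mean −0.01, SD 0.06), and the other, A_23_P315364, had 0.02 and 0.18 (mean 0.10). The signs were mixed over the probes, and none of the 4 values came near those of CXCL3. CXCL5 (NM_002994), another CXCR2 ligand, had log2 ratios of 0.08 and −0.01 (mean 0.03, SD 0.06). Of these 4 genes, CXCL1 and CXCL3 were lower on both arrays, and CXCL2 and CXCL5 were close to 0 by their brightest probes.

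CXCL8, interleukin-8, attracts neutrophils through CXCR1 and CXCR2. Its probe (A_32_P87013, NM_000584) had log2 ratios of −0.83 with normal labelling and 0.46 with the dye swap (mean −0.18, SD 0.92). Its levels were 9.80 with pre-miR-424 and 10.63 with control on the normal array, and 10.80 and 10.33 with the dye swap. After normalization its level was thus lower in Cy5 on both arrays, whichever RNA carried that dye, and the mean log2 ratio of Cy5 over Cy3 was −0.65. The pair of spots of this probe differed little within each array, with SDs of 0.0154 and 0.000787. By its shift away from Cy5 it ranked 8 of 13812 genes. As the signs were opposite, these arrays do not settle the direction of CXCL8 between the cultures. At 1.5-fold on both arrays, 71 measured genes were higher in Cy5 and 4 were lower in Cy5, 0.514% and 0.029% of the total. CXCL8 was not among these 4, since its value of 0.46 with the dye swap was below 1.5-fold.

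CCL20 attracts CCR6-bearing T helper cells and dendritic cells. It had log2 ratios of −0.69 and −0.33 (mean −0.51, SD 0.26, NM_004591) and ranked 170 from the bottom. Its levels were 13.87 with pre-miR-424 and 14.56 with control on the normal array, and 13.98 and 14.31 with the dye swap. CCL2, the monocyte attractant, is printed as 10 spots, of which 1 was an outlier on each array, so its probe did not enter the counts. With these spots kept, its log2 ratios were 0.18 and 0.07 (mean 0.12, NM_002982), and with only the outlier spots dropped, a setting chosen after the data were seen, they were 0.21 and 0.06. The CCL2 probe was dim, with Cy3 signals of 89.35 and 96.7 over backgrounds of 27.7 and 26.55. Its ratios depended on the processing, with 0.25 and 0.09 at an offset of 16 and 0.43 and 0.21 by the scanner software.

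**Figure D3:**
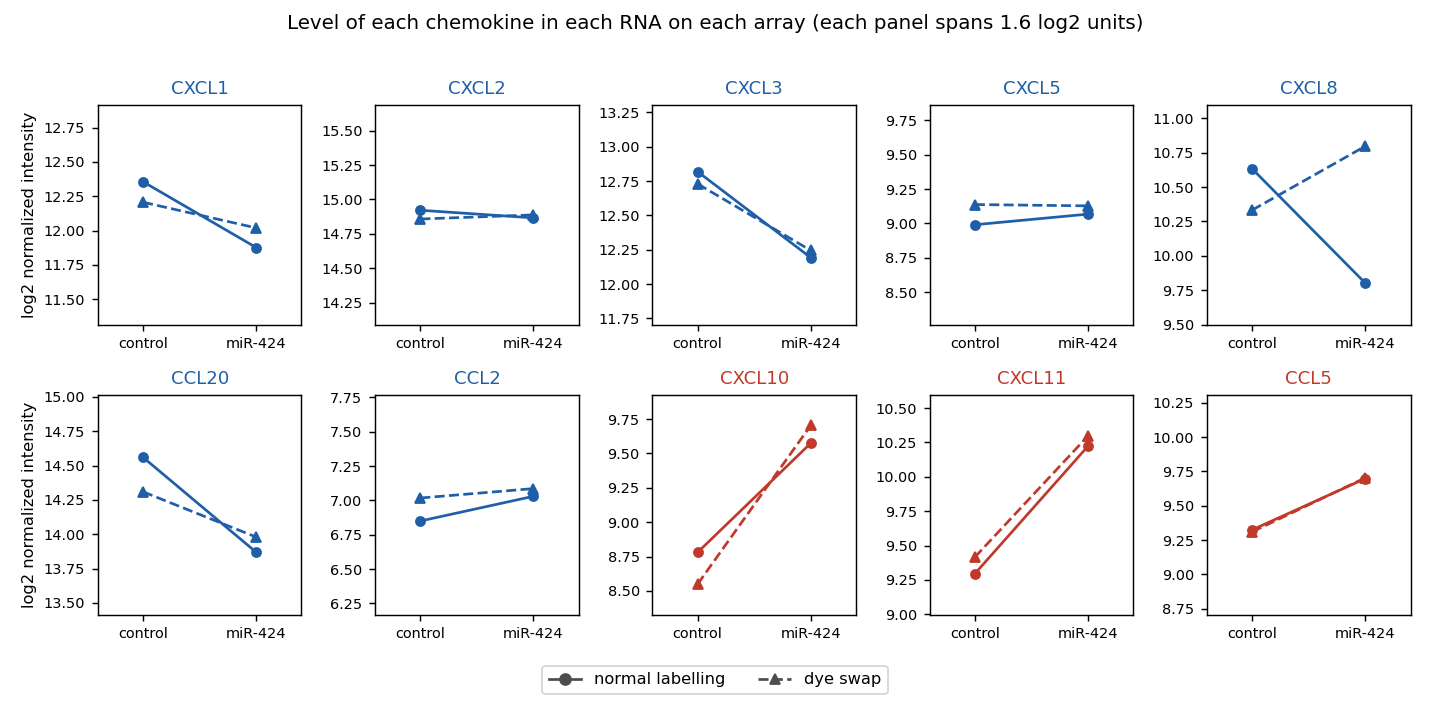
Log2 normalized intensity (vertical axis) of the representative probe of each of the 10 genes in control and pre-miR-424 RNA (horizontal axis), on the normal array (solid line, circles) and on the dye swap (dashed line, triangles); each panel spans 1.6 log2 units. The lines run upwards on both arrays for CXCL10, CXCL11 and CCL5, and downwards on both for CXCL1, CXCL3 and CCL20. For CXCL8 the line runs downwards on the normal array and upwards on the dye swap.

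Set side by side, the median log2 ratio of the 3 genes of interferon type was 0.79 with normal labelling and 0.88 with the dye swap, and that of the 6 measured genes of NF-kB type was −0.55 and −0.10. The median of their means was 0.90 (SD 0.06) and −0.26 (SD 0.32), beside −0.004 for all measured genes. The difference of the types was 1.35 with normal labelling and 0.98 with the dye swap (SD 0.26). By their means the types did not overlap, since the lowest of interferon type was CCL5 at 0.38 and the highest of NF-kB type was CXCL5 at 0.03. The same held on the normal array, but with the dye swap CXCL8 at 0.46 lay above CCL5 at 0.39. The median of NF-kB type therefore depended on the array, and it was −0.10 with the swap alone and −0.55 with the normal array alone.

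The region before the transcription start was read for the members whose values lay on the same side on both arrays and for CXCL2, the paralog of CXCL1 and CXCL3. RefSeq gave a promoter (GRCh38.p14) for 8 of the 10 genes, all but CCL5 and CCL2. The 250 bases before the start are printed for 6 of them, with matches to NF-kB motifs in capitals: the decameric NF-kB consensus of the kappaB site, and GGAATTTCC, which can overlap it. Those of NF-kB type come first.
CXCL1 (chr4:73869143-73869392, plus strand): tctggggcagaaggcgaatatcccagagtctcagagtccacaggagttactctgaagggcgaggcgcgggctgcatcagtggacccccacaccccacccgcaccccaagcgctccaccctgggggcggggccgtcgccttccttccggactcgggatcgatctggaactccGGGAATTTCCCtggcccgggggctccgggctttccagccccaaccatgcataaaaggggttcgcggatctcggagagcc
CXCL3 (chr4:74038690-74038939, minus strand): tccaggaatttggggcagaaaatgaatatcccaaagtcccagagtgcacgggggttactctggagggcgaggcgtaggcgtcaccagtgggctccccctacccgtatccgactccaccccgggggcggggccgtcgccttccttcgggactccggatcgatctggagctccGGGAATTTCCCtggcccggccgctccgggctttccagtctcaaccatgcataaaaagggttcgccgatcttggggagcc
CXCL2 (chr4:74099196-74099445, minus strand): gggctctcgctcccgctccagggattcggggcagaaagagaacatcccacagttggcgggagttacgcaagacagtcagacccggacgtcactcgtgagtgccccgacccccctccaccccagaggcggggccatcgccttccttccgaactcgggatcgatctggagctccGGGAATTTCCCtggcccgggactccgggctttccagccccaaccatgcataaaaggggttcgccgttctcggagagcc
CCL20 (chr2:227813592-227813841, plus strand): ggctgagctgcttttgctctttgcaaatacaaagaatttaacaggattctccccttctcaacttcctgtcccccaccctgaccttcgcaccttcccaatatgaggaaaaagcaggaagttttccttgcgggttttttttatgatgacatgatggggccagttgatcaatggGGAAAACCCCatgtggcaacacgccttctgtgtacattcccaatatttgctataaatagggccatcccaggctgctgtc
In CXCL1 and CXCL3 the consensus began 79 bases before the start, and in CXCL2 it began 78 bases before it, in each case as a palindrome-like run that matched on both strands. CCL20 matched on the minus strand, also from 79 bases before its start. CXCL1 and CXCL3, both lower on both arrays, were 82.5% identical over their aligned 300-base windows, against 73.8% for CXCL2 and CXCL3, 71.9% for CXCL1 and CXCL2, and 44.3% to 55.7% for all other pairs. The window of CXCL2 holds the same run as those of CXCL1 and CXCL3, while its log2 ratio lay closer to 0.

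The promoters of the interferon-type genes are printed in the same way, with the core of the interferon-stimulated response element, TTTCNNTTT on either strand, in capitals as well.
CXCL10 (chr4:76023498-76023747, minus strand): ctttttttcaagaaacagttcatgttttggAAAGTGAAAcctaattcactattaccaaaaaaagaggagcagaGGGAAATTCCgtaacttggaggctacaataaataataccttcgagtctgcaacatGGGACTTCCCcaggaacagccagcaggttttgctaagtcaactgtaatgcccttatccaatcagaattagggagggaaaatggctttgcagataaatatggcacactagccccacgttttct
CXCL11 (chr4:76036071-76036320, minus strand): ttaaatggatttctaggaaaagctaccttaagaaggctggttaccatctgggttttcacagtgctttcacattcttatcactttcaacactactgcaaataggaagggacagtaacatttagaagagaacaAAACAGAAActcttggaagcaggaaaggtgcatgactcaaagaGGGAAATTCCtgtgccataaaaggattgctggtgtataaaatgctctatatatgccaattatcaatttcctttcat
In CXCL10 this core began 220 bases before the start, upstream of NF-kB matches that began 177 and 122 bases before it. In CXCL11 it began 119 bases before the start, upstream of an NF-kB match that began 76 bases before it. The core was in 2 of 8 member promoters, CXCL10 and CXCL11, and in none of the 6 of NF-kB type, against 10.5% of 35116 promoters. The NF-kB consensus was in 7 of 8, all but CXCL8, against 11.3% of promoters, and GGAATTTCC was in 7 of 8, all but CCL20, against 0.461%. The genes of NF-kB type were grouped as classical targets of NF-kB, and CXCL1, CXCL2 and CXCL3 are paralogs. These NF-kB counts therefore do not test the grouping. The remaining motifs searched, TTCNNNGAA of STAT dimers and TGANTCA of AP-1, were each in 2 of 8, against 7.66% and 7.71%. NF-kB letters thus occurred in both types. The interferon core occurred in the printed pair of interferon type only, but its 2 of 8 equals the counts of the STAT and AP-1 motifs. With 6 promoters, its absence from NF-kB type does not set the types apart. These matches describe the sequences and not the binding of any factor.

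Most of these genes lie together. On chromosome 4 the RefSeq order runs CXCL8, CXCL6, PF4V1, CXCL1, PF4, PPBP, CXCL5, CXCL3 and CXCL2, and further along CXCL9, CXCL10 and CXCL11. CCL2 and CCL5 are on chromosome 17 and CCL20 is on chromosome 2. Neighbours that are no members were read for their place in this row, after their values were seen. CXCL6, a CXCR2 ligand, had log2 ratios of 0.03 and 0.18, PPBP, a platelet chemokine, had 0.06 and 0.07, and CXCL9, the third CXCR3 ligand, was not well above background in any channel. None of these neighbours was lower on both arrays as CXCL1 and CXCL3 were, and no value was obtained for CXCL9.

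Of 36 other chemokines, 34 had a probe and 13 were measured, while 18 were above background in no channel. Of these 13, 6 were higher on both arrays, 1 was lower on both and 6 had mixed signs, with a median log2 ratio of 0.03. None reached 1.5-fold on both arrays. The largest means of equal sign were those of CXCL16, a membrane-bound ligand of CXCR6 (0.08 and 0.31), CCL21, a ligand of CCR7 that guides lymphocytes to lymph nodes (0.14 and 0.24), and PF4, platelet factor 4 (0.08 and 0.26). A second CCL21 probe, A_33_P3273623, had 0.04 and 0.06. The probes of CCL21 and PF4 were dim, with a mean log2 brightness of 7.15 for the brightest of CCL21 and 7.22 for PF4. All of these lay nearer 0 on each array than CXCL10 and CXCL11.

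Most chemokine receptors were not above background in these epithelial cells. Of 23 receptor genes, 14 were above background in no channel and 6 were measured, of which 1 was higher on both arrays, 3 were lower on both and 2 had mixed signs (median 0.0008). CCR6, the receptor of CCL20, had log2 ratios of −0.32 and −0.24 (mean −0.28, SD 0.06). CXCR2, the receptor of the CXCL1 group, had −0.09 and −0.06 by a dim probe with a mean log2 brightness of 7.24. For CCR6 both arrays lay on the side of its ligand CCL20, at a smaller size.

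**Figure D4:**
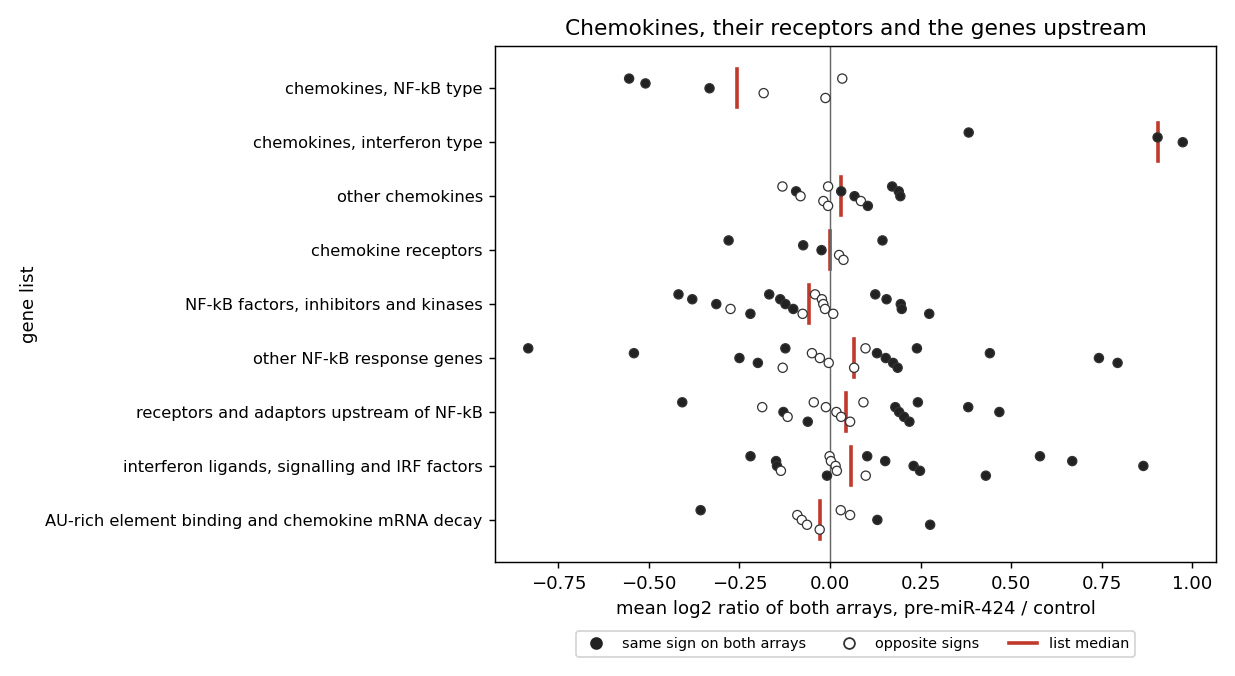
Mean log2 ratio of both arrays (horizontal axis) for each measured gene of the chemokine types, of the other chemokines, of their receptors and of 5 lists of upstream and decay genes (vertical axis). Filled points had the same sign on both arrays, open points opposite signs, and red bars are list medians. The medians are −0.26 for NF-kB type and 0.90 for interferon type, and between −0.06 and 0.07 for every other list.

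The NF-kB system itself was described in 3 lists. Of 20 measured factors, inhibitors and kinases, 5 were higher on both arrays, 8 were lower on both and 7 had mixed signs (median −0.06), and none reached 1.5-fold on both arrays. NFKBIZ, which encodes a nuclear IkB protein that acts with NF-kB on secondary response genes, had log2 ratios of −0.44 and −0.40 (mean −0.42, SD 0.03). REL, which encodes the subunit c-Rel, had −0.56 and −0.20, and CHUK, which encodes the kinase IKK-alpha, had −0.34 and −0.28. The main subunits gave smaller values, named here for their role and not by size. NFKB1 had −0.07 and −0.26, and RELA had 0.06 and −0.21.

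Other NF-kB response genes did not go one way. Of 19 measured, 8 were higher on both arrays, 5 were lower on both and 6 had mixed signs (median 0.07). IL6, the cytokine interleukin-6, had log2 ratios of 0.92 and 0.66 (mean 0.79, SD 0.18), and CSF2, which encodes the growth factor GM-CSF, had 0.81 and 0.67 (mean 0.74, SD 0.10). Both passed 1.5-fold upwards on both arrays. CSF3, which encodes the neutrophil growth factor G-CSF, had −0.57 and −1.10 (mean −0.83, SD 0.38) by its brightest probe, which was below 1.5-fold on the normal array. A second CSF3 probe, A_33_P3222424, had −0.98 and −0.77 and was past 1.5-fold downwards on both arrays.

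Of 18 measured receptors and adaptors that lead to NF-kB, 7 were higher on both arrays, 3 were lower on both and 8 had mixed signs (median 0.04). IL1RAP, the accessory chain of the interleukin-1 receptor, had log2 ratios of 0.32 and 0.61, and TLR4, the receptor of bacterial lipopolysaccharide, had 0.21 and 0.55, both by their brightest probes. Their second probes had mixed signs, with −0.15 and 0.27 for IL1RAP and −0.003 and 0.27 for TLR4. Both TLR4 probes were dim, with a mean log2 brightness of 7.07 and 6.73. TLR6, which pairs with TLR2 on bacterial lipopeptides, had −0.46 and −0.36. None of the 18 reached 1.5-fold on both arrays.

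The interferon list held genes well above 0 beside a median near 0. Of 18 measured ligands, receptors, kinases and factors, 8 were higher on both arrays, 4 were lower on both and 6 had mixed signs (median 0.06). IRF7, an interferon regulatory factor that is itself induced by interferon, had log2 ratios of 1.04 and 0.69 (mean 0.87, SD 0.24). IRF9 and STAT2 encode subunits of the complex that binds the interferon-stimulated response element. IRF9 had 0.70 and 0.64 (mean 0.67, SD 0.04), and STAT2 had 0.62 and 0.54 (mean 0.58, SD 0.05). IRF7 and IRF9 passed 1.5-fold on both arrays, as CXCL10 and CXCL11 did, and STAT2 fell short of it with the dye swap.

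Chemokine transcripts of the CXCL1 group are short-lived, and AU-rich elements in them are bound by decay factors. Of 9 measured genes of this kind, 2 were higher on both arrays, 1 was lower on both and 6 had mixed signs (median −0.03), and none reached 1.5-fold on both arrays. ZFP36L1, a decay factor, had log2 ratios of 0.26 and 0.29. MAPK14, the kinase p38-alpha, had 0.13 and 0.13, and MAPKAPK2, a kinase downstream of it, had −0.08 and −0.63. The arrays lay farther apart for MAPKAPK2 than for the other two.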

How the data were processed

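Total RNA of RWPE-1 cells was amplified, labelled and hybridised to 2 Agilent 2-colour arrays, a technical dye swap counted as 1 replicate. The scanner files deposited by the authors (Feature Extraction 10.7.3.1, per the file headers) give median spot signals and local backgrounds as linear intensity, and the same deposited files hold a log10 ratio of Cy5 over Cy3. Other deposited columns are flags for spots above background, saturated or outlying. The authors' value table holds log2 ratios whose scale and direction are not stated; they followed the unturned log2 Cy5 over Cy3 computed here (r = 0.991 and 0.988, column medians 0.0236 and 0.0355). The labels name limma, and the remaining steps behind that table are not given in the sources used here.

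In R 4.3.3, limma 3.58.1 corrected the background by normexp plus an offset of 50, which draws dim ratios towards 0, and each array was normalized by loess. Each probe's value was the mean of its spots, and the sign of the swap was reversed so that both arrays gave pre-miR-424 over control. Levels were taken after Aquantile scaling and were compared within a probe only. A probe was measured when all 4 channels stood well above background and no spot was an outlier, and the brightest measured probe stood for its gene. Of 27134 probes with a RefSeq accession, 25771 (95.0%) were named through a RefSeq table (GRCh38.p14). A gene was called when both arrays reached a log2 ratio of at least 1 (2-fold) with the same sign, and 1.5-fold was the alternative.

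The members and gene lists were chosen with earlier results of these data known. Of each list other than the members, the genes named were those called and up to 3 with the largest mean log2 ratio of equal sign on both arrays; exceptions are marked, and 1 gene that this rule names is not reported here. Motifs were searched on both strands of RefSeq windows from 250 bases before to 50 after each start, and windows were aligned with Biopython 1.88. Python 3.11.15, pandas 2.3.3, numpy 2.4.6 and matplotlib 3.10.9 were used.

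Values were recomputed with uncorrected background, an offset of 16, centring on the median, the ratios of the scanner software or of the authors, weaker or no filters, outlier spots kept or dropped singly, the mean over a gene's probes, each array alone and the 1.5-fold threshold.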

Additional observations from a re-analysis of the deposited data

How the results depend on the processing

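No alternative turned the sign of a type median or of the difference between the types. The median log2 ratio of interferon type was 0.90 and became 1.00 with the scanner software's ratios, in which CXCL11 lay just under 2-fold on both arrays, and it ranged from 0.79 to 0.88 with either array left out. That of NF-kB type was −0.26, and −0.55 or −0.10 on a single array. No member was called higher at 2-fold. Without the normal array 1 was, CXCL10, so with an array left out the count ranged from 0 to 1, and at 1.5-fold it was 2. None was called lower under any alternative run. Over all measured probes 36 were called, against 67 with the scanner software's ratios, 86 to 133 with an array left out and 218 at 1.5-fold. CXCL11 and CCL5 moved by more than their small spread between the arrays under 3 alternatives each, with ranges of 0.85 to 1.00 and 0.33 to 0.45. CXCL1, CXCL3 and CCL20 were below 0 and CXCL10 above 0 under all 12 alternatives, but many of these could not turn a sign. The weaker filters and the handling of outlier spots left their values unchanged, as their probes had already passed. Each array alone repeats values given above, and the authors' ratios were nearly those of the main setting. The signs of CXCL8 (−0.83 to 0.46), CXCL2 (−0.06 to 0.04) and CXCL5 (−0.02 to 0.08) were not stable, with CXCL8 turning on the swap alone. Median centring without loess left the median of all genes at 0.13 with normal labelling and −0.23 with the swap. No paired analysis was possible because the arrays are a single replicate of 1 comparison. The offset and the weak correlation between the arrays limit what dim probes and small ratios can show, and the spread between cultures was not measured.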
